A study of Mus musculus with 21 samples.

Results

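The corticotropin-releasing hormone (CRH) system was described through the 4 genes that encode the peptide, its binding protein and its receptors: Crh, Crhbp, Crhr1 and Crhr2. They were taken by symbol from the 55487 genes of a table of hippocampal RNA counts, and all 4 passed the filter on low counts that left 18146 genes for testing. None of the 4 differed between maternally separated and control mice beyond the spread between mice. The levels of 3 of them followed markers of particular tissue parts from mouse to mouse. Crhr2 followed choroid plexus markers. Over all 20 mice used, Crh and Crhr1 went with neocortex markers and against dentate gyrus and CA field markers. The negative relations were weaker without the mice of highest Crh and Crhr1. For Crhr1 the relation with neocortex markers was weak within the separated mice (Pearson r = 0.19). It was negative within the 6 mice of higher animal numbers (r = -0.46).

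CRH is the peptide with which hypothalamic neurons start the hormonal stress response, and in the forebrain it is also made by local neurons, in the hippocampus mainly by interneurons. It acts through the G protein-coupled receptor CRHR1, which raises cAMP, while the related receptor CRHR2 binds the urocortins, peptides related to CRH, more strongly. CRH-binding protein is secreted and holds free CRH and urocortin 1, which limits what reaches the receptors.

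The study asked whether stress early in life leaves lasting changes in the transcripts of the hippocampus. Male wild type C57BL/6 mice of the maternal separation (MS) group were kept from the dam for 4 h daily from postnatal day (PND) 10 to 17, alternately in the light and the dark phase, with part of the nesting material taken from the home cage. Control mice had standard rearing (SR), and hippocampi of both groups were dissected at 10 weeks of age. Poly-A RNA was sequenced with 1 library per mouse, 9 in MS and 12 in SR, and whole nests had been assigned to a condition. The labels name no nest, so mice whose animal numbers follow each other in runs of 3 share a letter here (MS has A, B and C, SR has D, E, F and G), followed by their order. Such sets A, B, D, E and F carry lower numbers and sets C and G higher ones. Littermates were treated together, so p-values over mice measure the spread between mice and not between nests.

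Total counts lay between 17276810 and 30449055 per library. The MS library A2 stood apart from the others, with a score of 27.1 on the first component of a PCA where the other 20 lay between -12.2 and 11.9. The labelled tissue was checked against markers of its parts. In A2 the 5 dentate gyrus markers summed to 25.6 CPM (counts scaled to the TMM-normalized total of the library) against 203 to 481 in the others, and the 9 striatum markers to 2545 CPM against 178 to 943. A2 was left out here, which leaves 8 MS mice beside 12 SR mice. The study had also removed 1 outlier, without naming it. It reports 9 MS and 12 SR mice, as many as there are libraries here, so whether its outlier was A2 is not known. With A2, edgeR's quasi-likelihood test also called none of the 4 genes, and the values in A2 are given with each gene. The hypothalamus markers Avp, Oxt, Sim1, Otp, Trh, Hcrt, Pmch, Agrp and Pomc together summed to at most 4.69 CPM in any of the 20 mice, of which Pomc had a mean of 0.911 CPM in MS and 0.840 CPM in SR, and Agrp 0.791 and 0.807 CPM.

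On GRCm38, with GENCODE M21 annotation, Crh (ENSMUSG00000049796) lies on the minus strand at chr3:19693401-19695396 with 1320 exon bases. Crhbp (ENSMUSG00000021680) lies on the minus strand at chr13:95431371-95444924 with 1800 exon bases. Crhr1 (ENSMUSG00000018634) lies on the plus strand at chr11:104132855-104175523 with 2460 exon bases in 1 annotated transcript. Crhr2 (ENSMUSG00000003476) lies on the minus strand at chr6:55090049-55133016 with 5115 exon bases over 9 transcripts. No other annotated gene overlaps any of them. The strand setting of the counting is not given in the sources used here.

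Per exon length, the order of the levels was Crhbp, Crhr1, Crh and Crhr2. Over the 20 mice Crhbp averaged 11.4 ± 1.25 CPM per kb (SD) and Crhr1 5.96 ± 1.55 CPM per kb. Crh averaged 1.31 ± 0.685 CPM per kb and Crhr2 0.712 ± 0.356 CPM per kb. Crhbp was above Crhr1 in 20 of 20 mice, by a median ratio of 1.98, and Crhr1 was above Crh in 20 of 20 mice. The neighbours Crh and Crhr2 overlapped, with Crh higher in 15 of 20 mice. The order was read on exon length pooled over transcripts, which lowers the value of a gene such as Crhr2 whose transcripts use only part of it.

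**Figure D1:**
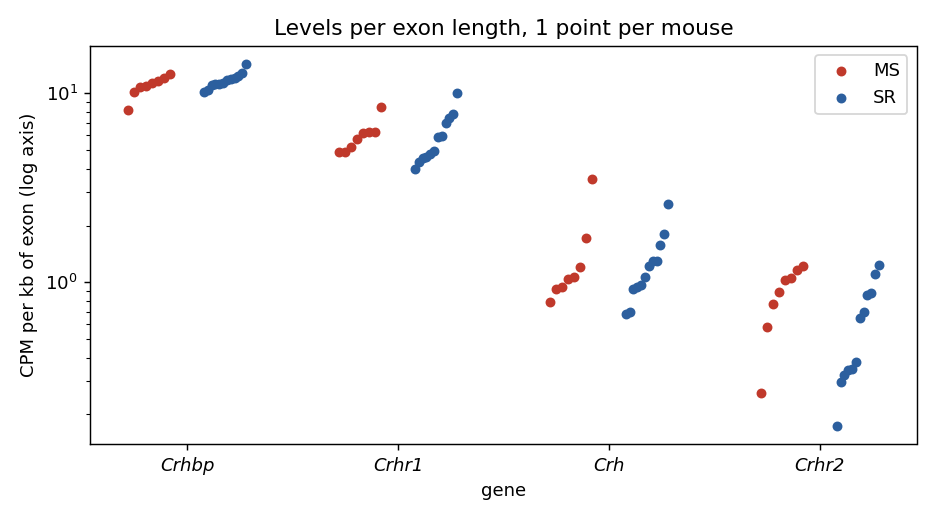
Levels of the 4 genes in CPM per kb of exon on a log axis, with 1 point per mouse, MS in red and SR in blue, sorted by value within each group. The points of Crhbp lie between 8.17 and 14.3, those of Crhr1 between 3.96 and 10.0, and those of Crh and Crhr2 lie lower and overlap.

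The genes also differed in how much they varied between mice. The biological coefficient of variation (BCV, the spread between mice of a group beyond counting error) was 10.5% for Crhbp, at percentile 45.5 of the genes tested. It was 23.8% for Crhr1, at percentile 84.4. Crh had a BCV of 39.8% (percentile 96.7) and Crhr2 one of 50.2% (percentile 98.3), so the peptide and its second receptor were among the most variable transcripts of these hippocampi. Both also had few counts, as few as 19 in a library for Crh and 22 for Crhr2. Counting error alone was therefore up to 22.9% of the value for Crh and 21.3% for Crhr2, against at most 6.20% for Crhbp and 6.84% for Crhr1.

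The 2 rearing conditions were compared by edgeR's quasi-likelihood test, with p-values adjusted by Benjamini-Hochberg across the whole table. It called 0 of the 4 genes, in a table where it called 0.011 percent of the 18146 genes (2 genes, both higher in MS). At an unadjusted p under 0.05 it had 0 of the 4 against 11.5 percent of all genes, and DESeq2 called 0 of the 4 and 0.775 percent of all genes. The median log2 fold change of all genes was 0.00. A share of 0 of 4 is what the background gives and says little about the 4 genes, so the size of each difference and its interval carry the comparison.

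**Figure D2:**
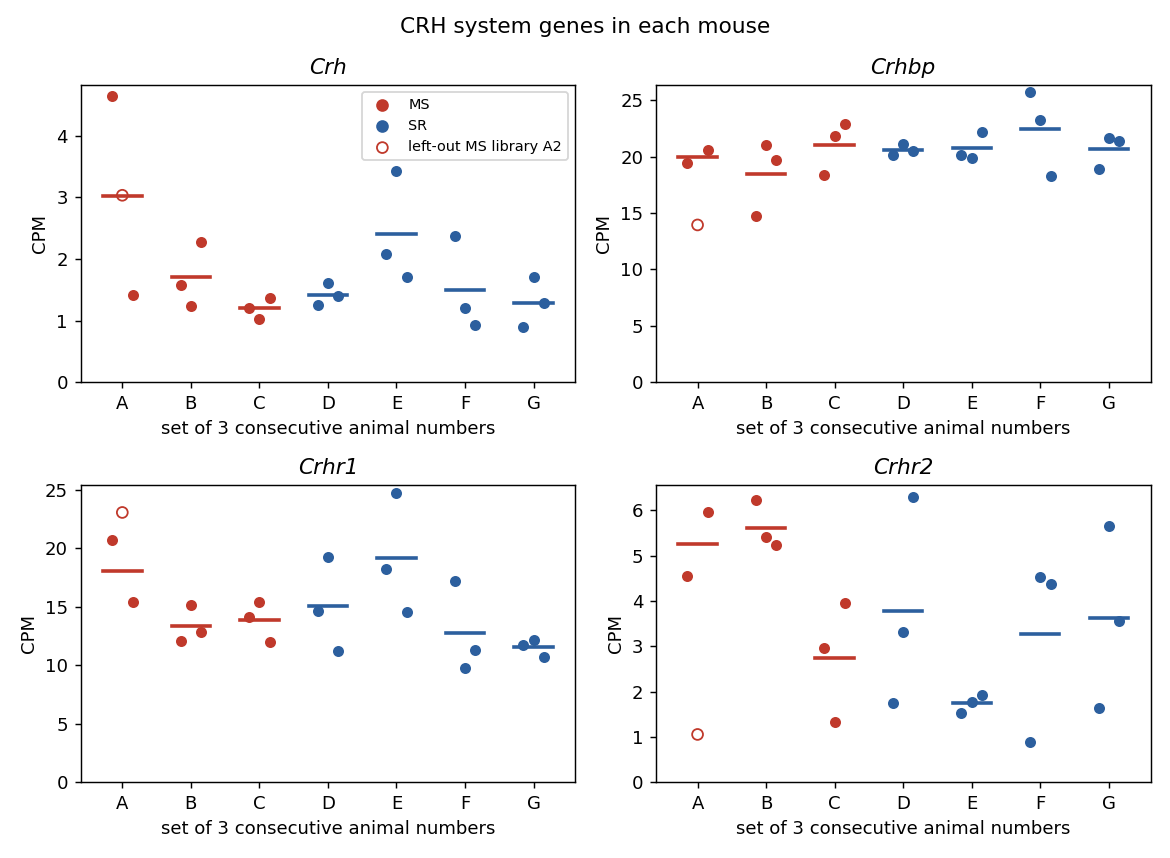
CPM of Crh, Crhbp, Crhr1 and Crhr2 in each mouse, by set of 3 consecutive animal numbers, with MS in red and SR in blue, a bar for the mean of each set and an open circle for the left-out library A2. MS and SR overlap for every gene, the 2 highest Crh values are those of A1 (4.63 CPM) and E2 (3.42 CPM), and Crhr2 is below 2 CPM in all of set E.

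Crh, the ligand, had a lowest, median and highest level of 1.03, 1.39 and 4.63 CPM in MS. The same values in SR were 0.893, 1.51 and 3.42 CPM, and the left-out library A2 had 3.03 CPM. The groups overlapped, and the MS mouse A1 lay above every other mouse while its median lay below that of SR. The means were 1.85 ± 1.19 CPM (SD, n = 8) in MS and 1.66 ± 0.707 CPM (SD, n = 12) in SR, which is 0.16 as a log2 fold change, with a standard error of 0.279 and a 95% interval of -0.42 to 0.73 (edgeR, adjusted p = 0.879). Leaving out A1 turned it to -0.20. The interval leaves room for a fold between 0.747 and 1.66, and the two-sided exact permutation test over mice gave p = 0.774.

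Crhbp, the secreted binding protein, was the steadiest member. Its lowest, median and highest levels were 14.7, 20.1 and 22.9 CPM in MS and 18.3, 20.8 and 25.7 CPM in SR, with 13.9 CPM in A2. Outside the range of the other group lay the MS mouse B1, below it, and the SR mice F1 and F2, above it. The means were 19.8 ± 2.50 CPM (n = 8) and 21.1 ± 2.01 CPM (n = 12), a log2 fold change of -0.09 with a standard error of 0.0691 (edgeR, adjusted p = 0.655). The 95% interval, -0.23 to 0.05, is the narrowest of the 4 and corresponds to 0.851 to 1.04 times the SR level. The two-sided exact permutation p was 0.220.

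Crhr1, the main receptor for CRH, ran from 12.0 CPM over a median of 14.6 CPM to 20.8 CPM in MS. In SR it ran from 9.75 CPM over a median of 13.4 CPM to 24.7 CPM, and A2 had 23.1 CPM. All MS values lay inside the SR range. The means were 14.7 ± 2.82 CPM (n = 8) and 14.6 ± 4.46 CPM (n = 12), and the log2 fold change was 0.01 with a standard error of 0.159 and a 95% interval of -0.32 to 0.34 (edgeR, adjusted p = 0.988). Its sign turned when single mice were left out, between -0.08 and 0.11, and the two-sided exact permutation p was 0.784.

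Crhr2, the receptor that prefers urocortins, had the largest difference of the 4. Its lowest, median and highest levels were 1.34, 4.89 and 6.22 CPM in MS and 0.888, 2.62 and 6.30 CPM in SR, with 1.05 CPM in A2. MS and SR covered nearly the same range, but 7 of the 8 MS mice were above the SR median. The means were 4.45 ± 1.65 CPM (n = 8) and 3.10 ± 1.79 CPM (n = 12), a log2 fold change of 0.51 with a standard error of 0.335 and a 95% interval of -0.19 to 1.21 (edgeR, adjusted p = 0.589). As a fold this is 1.42, with 0.874 to 2.31 as its interval. The two-sided exact permutation p was 0.115. The log2 fold change was 0.26 without set B and 0.81 without set C (edgeR, adjusted p = 0.904 and 0.237).

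With the sets of animal numbers in place of mice, 3 set means against 4, the smallest two-sided p an exact permutation test over the 35 splits can give is 0.0286. It gave p = 0.629 for Crh, 0.200 for Crhbp, 0.686 for Crhr1 and 0.229 for Crhr2.

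The sets themselves were then compared within each condition by edgeR's F test. It called 0 of the 4 genes and 0.0331 percent of all genes, and 2 of the 4 had an unadjusted p under 0.05, where 9.09 percent of all genes did. DESeq2's likelihood ratio test also called 0 of the 4, against 1.03 percent of all genes. These 2 genes were Crh (p = 0.0344, adjusted p = 0.510 in edgeR) and Crhr1 (p = 0.0357, adjusted p = 0.510 in edgeR). In SR, set E had the highest means of both, 2.40 CPM of Crh and 19.1 CPM of Crhr1, and set G the lowest, with 11.5 CPM of Crhr1. In MS, set A had the highest means of both, 3.02 CPM and 18.1 CPM, from its 2 remaining mice. Without the filter on low counts, the same F test in edgeR called 3 of the 4 genes, Crh, Crhr1 and Crhr2, and 5.1 percent of 39023 genes, in a fit whose prior degrees of freedom were infinite. With the filter the adjusted p was 0.897 for Crhbp and 0.691 for Crhr2 (edgeR). Crhr2 was low in every mouse of set E, 1.53 to 1.93 CPM, and high in every mouse of set B, 5.24 to 6.22 CPM.

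The effect of MS was compared between the mice of lower and of higher animal numbers, with 5 MS and 9 SR mice in the former and 3 and 3 in the latter. The interaction test in edgeR called 0 of the 4 genes and 0 percent of all genes, and none of the 4 had an unadjusted p under 0.05. DESeq2 called 0 as well, with no adjusted p for Crh. For Crhr2 the log2 fold change was 0.89 with a standard error of 0.364 in the lower-numbered mice and -0.42 with one of 0.495 in the higher-numbered mice. The difference was -1.32 with a standard error of 0.701 (edgeR, adjusted p = 0.610). The choroid plexus score, the mean log2 CPM of the 10 choroid plexus markers, had a median of 5.91 in MS and 3.80 in SR among the lower-numbered mice, and of 3.87 and 4.71 among the higher-numbered. Its part in the result was not tested within these ranges. As a term in the fit, the number range itself called 0 of the 4 genes and 0.281 percent of all genes. Crh came closest among the 4, with a log2 difference of -0.65 (higher- against lower-numbered mice) and a standard error of 0.284 (edgeR, unadjusted p = 0.0316, adjusted p = 0.288).

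Levels in a dissected hippocampus also depend on what the dissection holds, so each gene was set beside 7 marker lists over the 20 mice. In bulk RNA, fewer cells of a type and less RNA per cell cannot be told apart. Together with the 6 pairs among the genes this made 34 relations, with permutation p-values (100000 draws) adjusted over all of them. Of the 28 relations with a list 7 were called, 3 for Crh, 3 for Crhr1 and 1 for Crhr2, and of the 6 pairs 1 was called. Crhbp was in none of them.

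**Figure D3:**
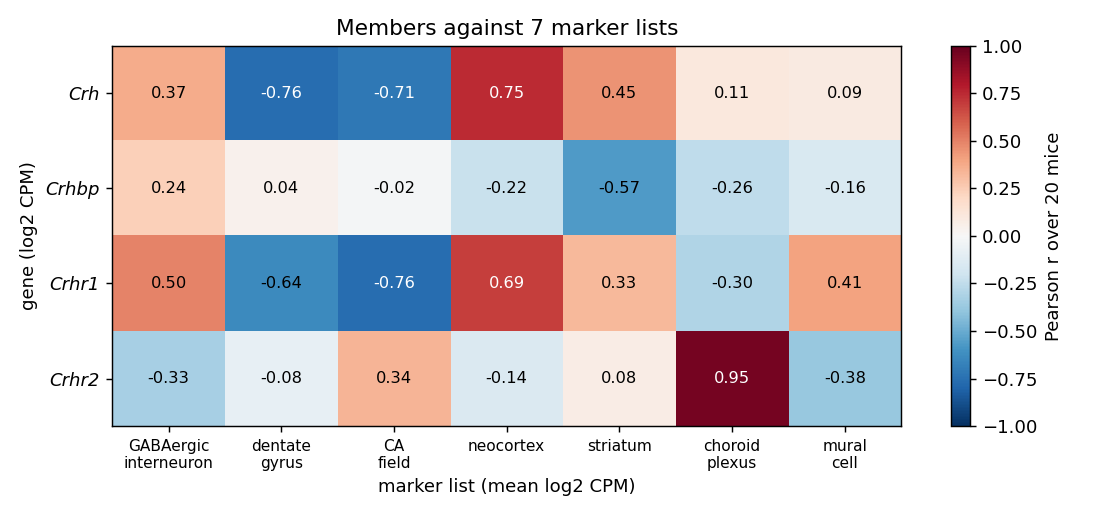
Pearson r over 20 mice between the log2 CPM of each gene and the mean log2 CPM of 7 marker lists, red for positive and blue for negative r. Crhr2 has r = 0.95 with the choroid plexus list, Crh and Crhr1 have r = 0.75 and 0.69 with the neocortex list and negative r with the dentate gyrus and CA field lists.

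Crhr2 followed the choroid plexus, the epithelium that makes cerebrospinal fluid and lies against the hippocampus in the ventricles. Its r with the choroid plexus list was 0.95 and its Spearman rho 0.97 (n = 20, permutation p = 1e-05 for both, the smallest these draws give, adjusted p = 0.00034). Without the 2 mice farthest from the median of the list r was 0.95, and it was 0.94 and 0.99 within the lower- and higher-numbered mice. It was 0.99 within MS and 0.93 within SR. The 10 markers summed to 58.2 to 4306 CPM in MS, with a median of 3406 CPM, and to 33.5 to 4636 CPM in SR, with a median of 861 CPM. Ttr, which encodes transthyretin and is among the most abundant choroid plexus transcripts, averaged 2307 ± 1406 CPM (SD, n = 8) in MS and 1217 ± 1410 CPM (n = 12) in SR, and Kl, which encodes Klotho, 132 ± 69.4 and 76.0 ± 66.6 CPM. All 10 had a positive log2 fold change, with a median of 0.90, and edgeR called 0 of the 10, with 0 at an unadjusted p under 0.05, while DESeq2 also called 0. In A2 they summed to 14.7 CPM, where Crhr2 was at 1.05 CPM. With the choroid plexus list as a term in the edgeR fit, an alternative added after seeing the data, the log2 fold change of Crhr2 was 0.02 with a standard error of 0.123 and a 95% interval of -0.24 to 0.27 (adjusted p = 0.989).

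**Figure D4:**
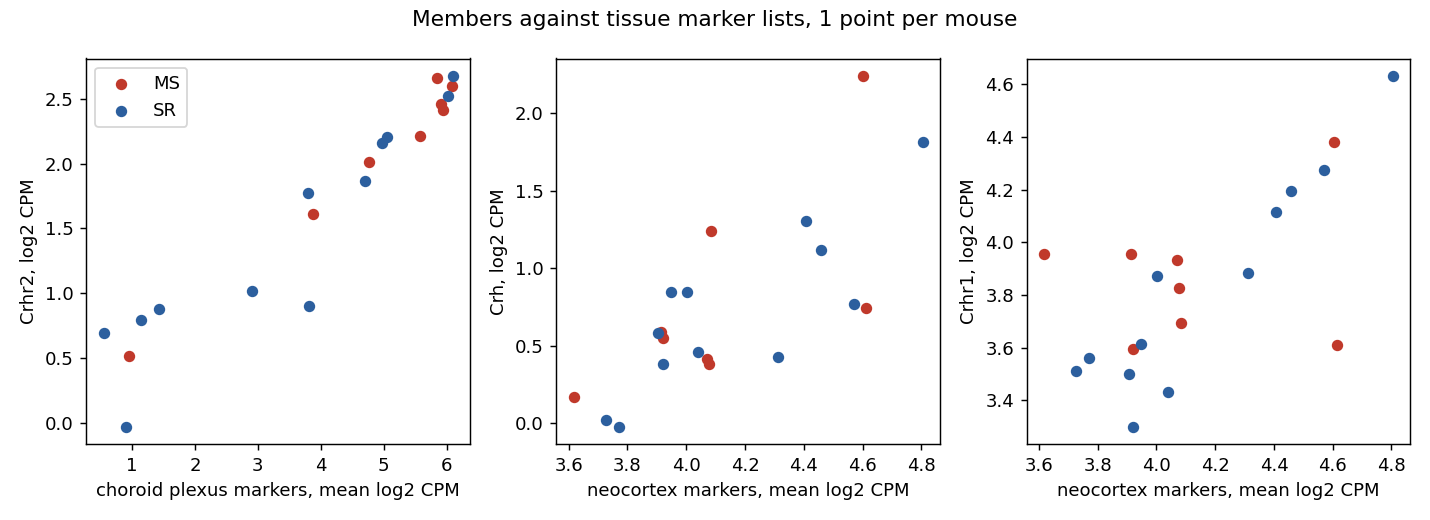
Log2 CPM of Crhr2 against the choroid plexus list and of Crh and Crhr1 against the neocortex list, each list as the mean log2 CPM of its genes, with 1 point per mouse, MS in red and SR in blue. Crhr2 rises along the whole range of the choroid plexus list in both groups, while the points of Crh and Crhr1 scatter more widely around a rise with the neocortex list.

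The genes whose levels over the mice were most like that of Crhr2, by Pearson r of the deviations from the condition means among 18146 genes, were Aqp1 (0.97), a water channel, Lbp (0.97), which encodes lipopolysaccharide-binding protein, and Slc2a12 (0.97), a glucose transporter. Aqp1 is in the choroid plexus list, and Lbp and Slc2a12 are in none of the lists. These r are descriptions of 20 mice.

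Over the 20 mice Crh and Crhr1 went with the neocortex list and against the 2 lists of hippocampal fields. Whether these relations are separate was not tested. With the neocortex list of 6 genes, r was 0.75 for Crh (rho 0.70, permutation p = 0.00012, adjusted p = 0.00119) and 0.69 for Crhr1 (rho 0.57, permutation p = 0.00072, adjusted p = 0.00459). Without the 2 mice farthest from the median of the list, E2 and B1, they were 0.74 and 0.73. A1, which the same check left out for the dentate gyrus and CA field lists, stayed in here. Within the higher-numbered mice (n = 6), however, r was 0.57 for Crh and -0.46 for Crhr1, and within the lower-numbered 0.70 and 0.75. For Crhr1, r was 0.93 within SR and 0.19 within MS. The list summed to 137 to 238 CPM in MS and 116 to 321 CPM in SR. Its most abundant genes were Tshz2, a transcription factor gene of cortical neurons, with 92.4 ± 25.0 CPM (n = 8) in MS and 109 ± 51.4 CPM (n = 12) in SR, and Fezf2, of deep-layer projection neurons, with 36.3 ± 3.80 and 38.3 ± 4.41 CPM. Log2 fold changes were positive for 3 and negative for 3 of the 6 genes, with a median of -0.03. edgeR and DESeq2 called 0 of the 6, with 0 at an unadjusted p under 0.05 in edgeR.

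The same 2 genes ran against the markers of the hippocampal fields. With the dentate gyrus list, r was -0.76 for Crh (adjusted permutation p = 0.00102) and -0.64 for Crhr1 (adjusted permutation p = 0.00952). With the CA field list, r was -0.71 for Crh (adjusted permutation p = 0.00476) and -0.76 for Crhr1 (adjusted permutation p = 0.00119). Spearman's rho with the CA field list was -0.48 for Crh (adjusted permutation p = 0.130) and -0.57 for Crhr1 (adjusted permutation p = 0.0491). With the dentate gyrus list rho was -0.65 for Crh (adjusted permutation p = 0.0247) and -0.56 for Crhr1 (adjusted permutation p = 0.0491). Without A1 and E2 the 4 values of r fell to -0.56 and -0.38 for the dentate gyrus and to -0.36 and -0.53 for the CA fields. The unadjusted permutation p was then 0.140 for Crh with the CA fields and 0.118 for Crhr1 with the dentate gyrus. The strength of these 2 relations thus depended on A1 and E2. Within the higher-numbered mice r with the CA fields was positive, 0.44 for Crh and 0.49 for Crhr1. For Crhr1 with the dentate gyrus it was 0.58, and for Crh -0.82. Prox1, the transcription factor of dentate granule cells, averaged 107 ± 22.1 CPM in MS and 118 ± 23.8 CPM in SR, and Dsp, a desmosome gene marking the same cells, 77.7 ± 16.9 and 84.1 ± 24.6 CPM. Of the CA field list, Spock1, a proteoglycan gene, averaged 214 ± 15.7 and 227 ± 12.0 CPM, and Wfs1, a gene of CA1 pyramidal cells, 145 ± 21.1 and 160 ± 23.6 CPM. Log2 fold changes were negative for all 5 dentate gyrus genes. Of the 9 CA field genes they were positive for 3 and negative for 6, with a median of -0.05. None of the dentate gyrus or CA field genes was called by edgeR or DESeq2, and 1 gene, Spock1, had an unadjusted p under 0.05 in edgeR.

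Crh and Crhr1, ligand and receptor, also went together, with r = 0.69 and rho = 0.57 (n = 20, permutation p = 0.00081, adjusted p = 0.00459). Without A1 and E2, which were the 2 highest in both, r was 0.43 with an unadjusted permutation p of 0.0747, so its strength depended on those mice. With deviations from the set means of all 20 mice, r was 0.56 (adjusted permutation p = 0.0369). It was 0.73 within the lower-numbered and -0.25 within the higher-numbered mice (n = 6), and 0.56 within MS and 0.81 within SR. With the neocortex list as a term, an alternative added after seeing the data, the MS against SR log2 fold change in edgeR was 0.21 with a standard error of 0.182 for Crh (adjusted p = 0.638) and 0.09 with one of 0.109 for Crhr1 (adjusted p = 0.732). The genes most like Crh were Etnk2 (r of deviations 0.88), an ethanolamine kinase gene, Sstr2 (0.87), a somatostatin receptor gene, and AC124108.1 (0.87). Those most like Crhr1 were Cdk16 (0.94), a kinase gene, Scrt1 (0.94), a neuronal transcription factor gene, and Gm40841 (0.93).

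Crhbp was in no called pair over the 20 mice, and neither was Crhr2. Crhr2 had r = -0.06 with Crh and -0.42 with Crhr1 (adjusted permutation p = 0.848 and 0.178). The r of Crhbp with Crh was 0.06, with Crhr1 0.07 and with Crhr2 -0.35, none of them called (adjusted permutation p = 0.848, 0.848 and 0.274). With the GABAergic interneuron list, r was 0.24 (adjusted permutation p = 0.442). Of the interneuron genes, Gad1, which encodes a GABA-synthesizing enzyme, averaged 296 ± 23.2 CPM (n = 8) in MS and 291 ± 18.3 CPM (n = 12) in SR. The strongest relation of Crhbp was with the striatum list, r = -0.57 (permutation p = 0.0203, adjusted p = 0.0767), which without B1 and E2 was -0.03. With all 21 libraries it was called, at -0.75 (adjusted permutation p = 0.00599). Crhbp was then also called with the mural cell list (-0.54, adjusted permutation p = 0.0409) and the dentate gyrus list (0.57, adjusted permutation p = 0.0481). Among the 20 mice, B1 had the lowest Crhbp and, with 943 CPM, the highest sum of striatum markers. Of these markers Pde10a and Ppp1r1b, genes of striatal projection neurons, averaged 101 ± 58.5 and 89.0 ± 66.4 CPM in MS and 93.8 ± 25.1 and 63.4 ± 30.7 CPM in SR. With the interneuron list as a term, an alternative added after seeing the data, the log2 fold change of Crhbp was -0.10 with a standard error of 0.0679 (edgeR, adjusted p = 0.533). Genes most like it were Mthfsd (0.79), Rab39 (0.78), of the Rab GTPases, and Bap1 (0.76), a deubiquitinase gene, lower than the closest r for the other 3 genes.

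The remaining lists held no relation called by r. With the interneuron list, r was 0.37 for Crh (adjusted permutation p = 0.242), 0.50 for Crhr1 (adjusted permutation p = 0.0852) and -0.33 for Crhr2 (adjusted permutation p = 0.285). For Crhr1 it was called with all 21 libraries (0.55, adjusted permutation p = 0.0320) and with deviations from the set means (0.60, adjusted permutation p = 0.0189). With the striatum list, Crh had r = 0.45 (adjusted permutation p = 0.151) and rho = 0.56 (adjusted permutation p = 0.0491), and without B1 and E2 r was 0.60. With the mural cell list, r was 0.09 for Crh, -0.16 for Crhbp, 0.41 for Crhr1 and -0.38 for Crhr2, and its genes Rgs5 and Pdgfrb, of pericytes, averaged 93.1 ± 4.87 and 27.6 ± 3.05 CPM in MS and 92.4 ± 8.97 and 29.5 ± 2.33 CPM in SR. The thalamus list was used only as a check of the tissue, and its genes summed to 58.0 to 127 CPM in MS and 57.7 to 99.6 CPM in SR. Of these Prkcd averaged 37.3 ± 14.6 and 33.8 ± 9.38 CPM, and Rora 34.4 ± 8.78 and 34.8 ± 11.0 CPM. edgeR and DESeq2 called 0 genes of the interneuron, striatum, mural cell, thalamus and hypothalamus lists, and 1 of these genes, the interneuron transcription factor gene Lhx6, had an unadjusted p under 0.05 in edgeR.

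**Figure D5:**
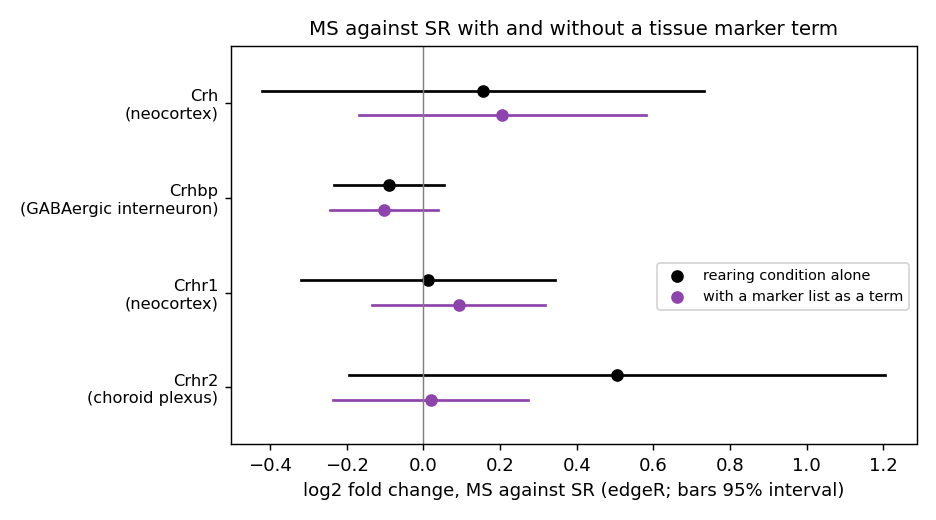
Log2 fold change of the 4 genes, MS against SR, with 95% intervals from edgeR, in black with the rearing condition alone and in purple with the marker list named under each gene as a term. All 8 intervals hold 0, and Crhr2 moves from 0.51 to 0.02 with the choroid plexus list.

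The promoters of the receptor genes are shown as a description, as the 2 receptors ran along different marker lists. Counts per gene do not show which start is used, and Crhr2 has 9 annotated transcripts but 1 window here. RefSeq windows for GRCm38.p6 were found for 3 of the 4 genes, Crhbp, Crhr1 and Crhr2. The 250 bases before the start of Crhr1 are chr11:104132531-104132780 (plus strand) and those of Crhr2 chr6:55133017-55133266 (minus strand), written 5′ to 3′ along the gene with TATAAA in capitals:
Crhr1: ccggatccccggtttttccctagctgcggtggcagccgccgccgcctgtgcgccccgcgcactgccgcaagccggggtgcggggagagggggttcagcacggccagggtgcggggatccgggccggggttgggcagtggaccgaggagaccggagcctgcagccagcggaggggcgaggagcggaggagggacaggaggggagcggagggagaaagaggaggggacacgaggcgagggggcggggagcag
Crhr2: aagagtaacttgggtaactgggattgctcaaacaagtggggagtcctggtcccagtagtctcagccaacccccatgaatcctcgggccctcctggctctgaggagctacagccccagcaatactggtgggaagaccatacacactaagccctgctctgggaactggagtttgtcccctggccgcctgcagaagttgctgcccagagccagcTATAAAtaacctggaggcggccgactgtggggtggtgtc

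The Crhr1 window had a GC content of 74.8%, at percentile 96.1 of 32851 windows of this length, and the Crhr2 window 57.6%, at percentile 66.8. TATAAA, searched on the gene's own strand, was found in the Crhr2 window with its first base 39 bases before the start. It was not found in those of Crhr1 and Crhbp, and 7.59% of all windows hold it. The cAMP response element TGACGTCA, searched on both strands, was in none of the 3 windows and in 1.55% of all, among them that of Ucn. Such matches describe letters and are not shown to be sites in use.

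The other ligands were at the edge of detection. Over the 20 libraries Ucn had 11 counts in 5 libraries, Ucn2 24 counts in 14 libraries and Ucn3 0, which allows up to 3 counts over the 20 together, and none passed the filter. They encode urocortin 1, which binds both receptors, and urocortins 2 and 3, which bind CRHR2. They were not tested between MS and SR.

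The related receptors and the signalling genes were taken from lists and gave the setting of the 4 genes. Of 13 other class B1 receptors, the family of peptide hormone receptors that holds CRHR1 and CRHR2, 10 were tested, and edgeR called 0, with 2 at an unadjusted p under 0.05, where 11.5 percent of all genes had one. These were Gipr, the receptor for glucose-dependent insulinotropic polypeptide, with 2.80 ± 0.500 CPM (n = 8) in MS and 3.50 ± 0.539 CPM (n = 12) in SR (edgeR, adjusted p = 0.288), and Calcrl, a receptor for calcitonin gene-related peptide and adrenomedullin, with 6.36 ± 0.369 and 5.71 ± 0.502 CPM (edgeR, adjusted p = 0.360).

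Of 34 genes of CRH receptor signalling, from G proteins and adenylyl cyclases to CREB, arrestins and phosphodiesterases, all were tested, and edgeR called 0, with 4 at an unadjusted p under 0.05, against 11.5 percent of all genes. Log2 fold changes were positive for 16 and negative for 18, with a median of 0.00, as over all genes. The smallest p belonged to Adcy2, an adenylyl cyclase, with 132 ± 11.0 CPM in MS and 144 ± 5.57 CPM in SR (log2 fold change -0.12, edgeR adjusted p = 0.232). Plcb1, a phospholipase C, averaged 213 and 229 CPM (log2 fold change -0.10, standard error 0.0436, edgeR adjusted p = 0.355).

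Of 12 regulators of Crh transcription 10 were tested, and edgeR called 0, with 2 at an unadjusted p under 0.05, against 11.5 percent of all genes. Rest, a repressor of neuronal genes, had 6.62 ± 1.11 CPM in MS and 5.73 ± 0.461 CPM in SR (log2 fold change 0.21, edgeR adjusted p = 0.331). Crem, a cAMP-responsive transcription factor, had 10.3 ± 1.31 and 9.08 ± 1.10 CPM (log2 fold change 0.18, edgeR adjusted p = 0.380). The regulator and signalling lists share genes, among them Crem, which is counted in both. DESeq2 also called 0 genes of these 3 lists.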

How the data were processed

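Hippocampal poly-A RNA of 21 male mice (9 MS, 12 SR) was sequenced. Per the labels and the study's methods, the authors aligned paired reads to GRCm38 with STAR 2.7.3a and counted them per Ensembl gene with featureCounts. They deposited raw counts, 1 column per library, without normalization or filter. Columns of no sample numbered 0. Depth sets the counting error, which is given beside the values, and the spread between mice adds to it.

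Rearing condition in the labels gave the groups. The members and lists were chosen with earlier results of these data known. Symbols came from a table of gene names, which matched 55141 of 55487 identifiers. The library farthest from the others on the first component of a PCA (DESeq2's variance-stabilised counts, 500 most variable genes), A2, was left out. Counts were TMM-normalized, filtered by filterByExpr (minimum count 10) and tested with edgeR 4.0.16 (quasi-likelihood, robust) in R 4.3.3, with Benjamini-Hochberg adjustment and a threshold of 0.05. A standard error is the size of the log2 value over the root of edgeR's F. Log2 CPM used a prior count of 2. Exact permutation tests used all 125970 splits of the mice, and correlations 100000 draws (Python 3.11.15). A relation was called at an adjusted p of Pearson's r under 0.05.

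Named were the 4 members, the urocortins, the 2 genes of smallest p in each list of related receptors, signalling genes and regulators, at most 2 genes of highest CPM in each marker list, and the 3 genes most like each member. A marker gene that this rule names is not reported here. Alternatives were all 21 libraries, DESeq2 1.42.0, no filter, DESeq2 size factors, number range as a term, limma-voom (limma 3.58.1) with the set as a random block, summed sets, and each library or set left out. The tests were checked on simulated counts.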

Additional observations from a re-analysis of the deposited data

Results flagged for a closer look

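In MS, 2 values of the same mouse lay far from the rest of the group by Dixon's test, which by chance picks about 1 in 20 groups. They are those of A1, with 4.63 CPM of Crh (gap to the next mouse 0.655 of the range, critical value 0.526 for 8 mice) and 20.8 CPM of Crhr1 (0.608 of the range). A1 had a dentate gyrus score of 4.83 (mean log2 CPM), with the SR mouse E2, at 4.76, the lowest of the 20 mice, and E2 had the highest Crh and Crhr1 of SR. These 2 mice also had the lowest CA field scores, 5.82 in A1 and 5.72 in E2. The striatum score of E2 was 5.51, where the median of SR was 3.33. The neocortex score was highest of the 20 mice in E2, at 4.81, with 3.42 CPM of Crh and 24.7 CPM of Crhr1. That of A1 was 4.60. B1 with 4.61 and D2 with 4.57 were as high as A1, with 1.58 and 1.62 CPM of Crh and 12.1 and 19.3 CPM of Crhr1. The part of tissue makeup in these values was not tested.

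The left-out library A2 had 0.0989 CPM of Ucn3, from 3 counts, where all 20 other libraries had 0. A count of 0 over the 20 libraries together allows up to 3 counts among them, which at the depth of A2 is 0.210 counts, so its 3 counts were above that limit, which covers counting error only.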

How the results depend on the processing

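No alternative brought any of the 4 genes past the threshold for MS against SR, with adjusted p from 0.487 to 0.974 for Crh, 0.337 to 0.922 for Crhbp, 0.666 to 1.00 for Crhr1 and 0.237 to 0.989 for Crhr2 over 36 fits each. Leaving out 1 library at a time gave log2 fold changes of -0.20 to 0.30 for Crh, -0.12 to -0.04 for Crhbp, -0.080 to 0.11 for Crhr1 and 0.41 to 0.65 for Crhr2, which was 0.26 without set B and 0.81 without set C (unadjusted p = 0.0355 in edgeR). Crh turned negative only without A1 (-0.20) or set A (-0.20), and Crhr1 without A1, 6 single SR mice, or sets A (-0.10), F (-0.051) or G (-0.090); signs of Crhbp and Crhr2 held in all of these fits. The count of all genes called, 2, was 1 with all 21 libraries, 1 without the filter, 119 with DESeq2, 0 with counts summed by set, 0 without set A, B, D or F, 1 without G and 340 without C, and 0 to 109 with 1 library left out (109 without C2 and without C3). The cause was not tested.

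Among the sets, the fit without a filter on low counts called 3 of the 4 genes, Crh, Crhr1 and Crhr2, and 5.1 percent of all 39023 genes. In that fit edgeR's prior degrees of freedom were infinite, so each gene's own spread was replaced by the trend: the quasi-likelihood variance of Crhr2 went from 4.48 to 0.730. With all 21 libraries, 2 of 6 pairs and 16 of 28 list relations were called, and with deviations from the set means 2 pairs. The added pair was Crhr1 with Crhr2 in both, and its r was negative. It was -0.51 with all 21 libraries (adjusted permutation p = 0.0404) and -0.58 with deviations from the set means (adjusted permutation p = 0.0245). No paired analysis was possible because whole nests had been assigned to a condition, so no nest held mice of both. Counting error is largest for Crh and Crhr2.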
